A study of Homo sapiens with 8 samples.

Results

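The S100 calcium-binding genes examined here were S100A2, S100A3, S100A4, S100A6, S100A10, S100A11, S100A13 and S100A16, listed by name, and all 8 were found among the 54174 gene symbols of the deposited table. All 8 had a value in every library and were among the 9016 genes tested. They were chosen with earlier results of these data known. The cells were 143B, an established human osteosarcoma line derived from a bone tumour line by transformation with a Ras oncogene. The control group was 4 libraries from 143B cells that had received a vector plasmid, and the knockout group was 4 libraries from 143B cells that had received a plasmid labelled NELL1KO, each after 48 h of transient transfection. The genotype labels are control and NELL1 knockout. No selection or cloning of transfected cells is described, so each library is a bulk culture in which the share of edited cells is not given. The design text calls the replicates biological, and the labels do not name separate cultures, so p-values measure the spread between these libraries, which may be technical.

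S100 proteins are small EF-hand proteins found in vertebrates, which mostly work as dimers. Calcium binding opens a hydrophobic cleft through which an S100 dimer grips a target, often an annexin, a cytoskeletal protein or a transcription factor, and several S100 proteins also act outside the cell on surface receptors. In mesenchymal tumours, osteosarcoma included, the family is best known through S100A4, a protein tied to cell motility and metastasis.

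The members lie on the long arm of chromosome 1 in the RefSeq annotation of GRCh38.p14, a patch of the build GRCh38 named in the submitters' processing notes. S100A10 (chr1:151982915-151993859) and S100A11 (chr1:152032506-152037004) are 38.6 kb apart. The other 6 lie 1497.6 kb further on, within 99.8 kb, in the order S100A6 (chr1:153534599-153535991), S100A4 (chr1:153543621-153545806), S100A3 (chr1:153547329-153549258), S100A2 (chr1:153561108-153565844), S100A16 (chr1:153606883-153613137) and S100A13 (chr1:153618799-153634361). In GENCODE 29 the S100A4 gene model spans S100A3 on the same strand over 2044 bases, and S100A1 overlaps S100A13 on the opposite strand over 3435 bases. How reads in such overlaps were counted is not given in the sources used here, so the values of S100A3 and S100A4, and of S100A13 and S100A1, may share reads.

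The libraries had between 14911 and 15171 genes with a value, and their depth is unknown because no counts are given. The targeted gene did not check the labels: NELL1 was -6.97 to -4.53 in control and -6.96 to -4.82 in the 3 knockout libraries with a value, with 1 knockout library blank, near the bottom of the range in both groups, and the log2 difference was -0.01 (exact two-sided permutation test, p = 1, smallest possible 0.0286). Of the osteoblast lineage markers, 4 of 8 had a value in every library, and SP7 and IBSP were blank in all. The summed level of that list, as log2, was 3.49 to 4.87 in control and 3.97 to 4.85 in knockout libraries. Most of it was SPP1, at 3.08 to 4.70 in control and 3.74 to 4.66 in knockout libraries. All 3 mesenchymal markers had a value in every library. Their summed log2 level, mostly VIM, was 10.86 to 10.93 in control and 10.24 to 10.72 in knockout libraries. VIM (-0.43, limma adjusted p = 0.0425, 0.0507 with the replicate block) and FN1 (-1.26, limma adjusted p = 0.0261) were called lower, calls that were lost in 6 and 4 of 8 fits leaving out 1 library and with averaged pairs (limma adjusted p = 0.132 and 0.0774), and their part in the S100 results was not tested. The summed epithelial markers were 2.39 to 2.75 and 1.83 to 2.76, and the endothelial markers -4.21 to -2.79 and -3.48 to -2.96, in control and knockout libraries respectively. The epithelial sum was nearly all EPCAM. Of 4 haematopoietic markers 3 were blank throughout. The other, CD14, was -4.90 to -4.22 in the 4 control libraries, blank in knockout libraries 1 and 2, and -2.67 and -2.94 in knockout libraries 3 and 4. Knockout libraries 1 and 2 resembled each other (SD across genes of their difference 0.12), as did knockout libraries 3 and 4 (0.13), whereas the SD between members of these sets was 0.46 to 0.50. Control libraries 1 and 2 were also close (0.10), and the largest SD between controls was 0.29, for libraries 1 and 3. Between control and knockout libraries the SD was 0.355 to 0.454, below that between the knockout sets. The libraries of a close pair may not be independent. Results are also given with each knockout pair averaged to 1 library. In that fit all 4 controls, the close control libraries 1 and 2 included, were kept separate.

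Every one of the S100 genes was lower in the knockout libraries. The knockout level was between 54.3% and 72.3% of the control level, with S100A2, S100A10 and S100A11 the lowest relative to control and S100A6 the least changed. In the fit over all tested genes (limma on the log2 values, Benjamini-Hochberg adjusted p under 0.05 counted as called), 8 of 8 were called lower, against 6.10% of the 9016 tested genes called lower and 7.02% called higher (13.1% in either direction). Their median log2 difference was -0.72, against 0.01 over all tested genes. In all 8 genes every knockout value lay below every control value, which held for 10.4% of tested genes. For S100A4 this separation was only 0.0011 log2 units. Because the members were chosen with earlier results of these data known, their counts beside all tested genes are a description. Base 2 is inferred from the range of the values, and percentages of the control level rest on it. All libraries share 1 distribution of values, so each change is relative to the other genes. In these bulk cultures fewer cells of a kind and less RNA per cell cannot be told apart.

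**Figure D1:**
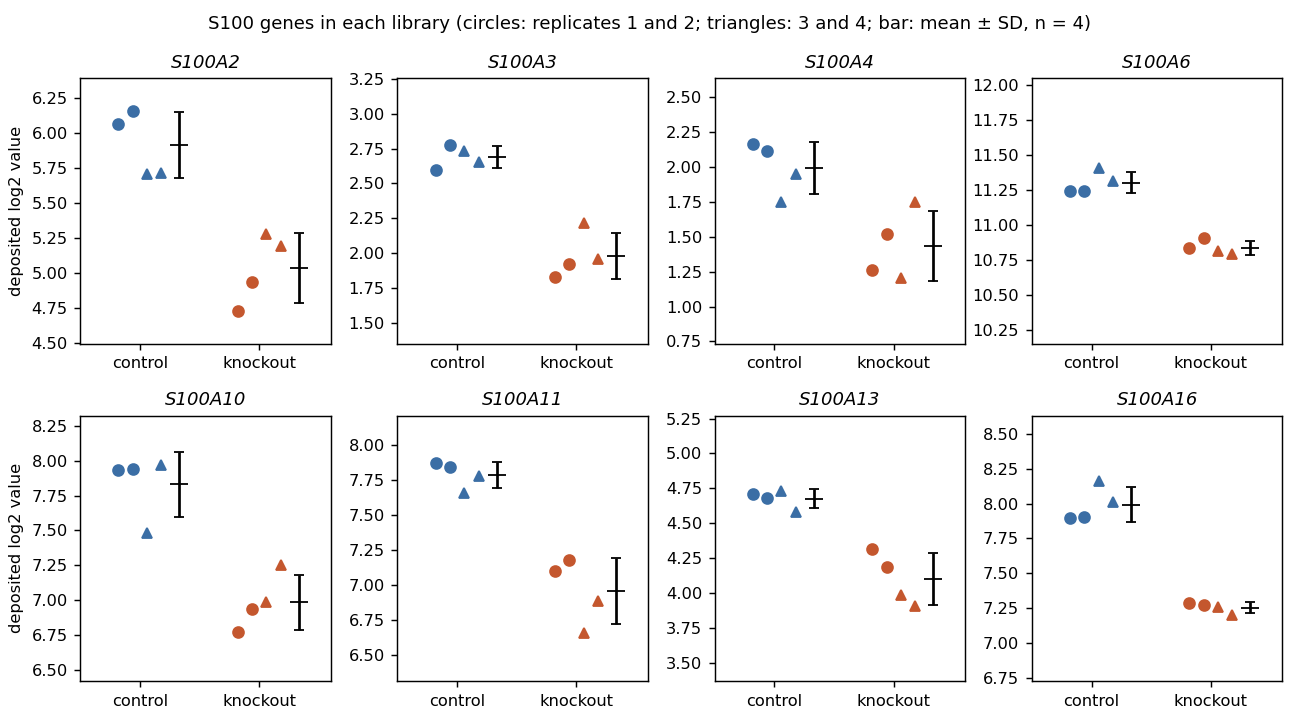
Deposited log2 value (vertical axis, same span in every panel) of each S100 gene in the 4 control and 4 knockout libraries, with circles for replicates 1 and 2, triangles for replicates 3 and 4, and the mean ± SD (n = 4) beside them. All 4 knockout points lie below all 4 control points in every panel, with the closest approach in S100A4, where control library 3 (1.75207) and knockout library 4 (1.75097) nearly touch.

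Promoter sequence was read for the members because they fell together. RefSeq start-site windows of 300 bases (250 before the start and 50 after, GRCh38.p14) were found for all 8 genes, 12 windows in all. They were searched on both strands for the AP-1 site TGANTCA, the antioxidant response element core TGACNNNGC, the STAT element TTCNNNGAA, the TATA box TATAAA and the NF-kappaB motif. AP-1 and antioxidant matches can overlap when TGACTCA is followed by GC. The upstream 250 bases of 3 windows are shown because they hold the AP-1, STAT and TATA matches of neighbouring members. They are written with the matches in capitals, 5′ to 3′ on the gene's strand.
S100A2, chr1:153565845-153566094, minus strand: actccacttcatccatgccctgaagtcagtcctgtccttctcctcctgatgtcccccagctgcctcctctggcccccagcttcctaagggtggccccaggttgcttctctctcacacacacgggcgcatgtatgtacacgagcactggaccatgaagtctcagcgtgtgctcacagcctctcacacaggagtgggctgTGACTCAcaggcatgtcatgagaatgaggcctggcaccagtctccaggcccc
S100A3, chr1:153549259-153549508, minus strand: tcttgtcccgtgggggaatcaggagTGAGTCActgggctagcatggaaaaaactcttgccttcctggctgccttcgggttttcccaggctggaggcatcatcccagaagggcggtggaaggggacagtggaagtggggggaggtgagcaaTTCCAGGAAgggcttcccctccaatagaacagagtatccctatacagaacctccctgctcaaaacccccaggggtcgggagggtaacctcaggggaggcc
S100A4, chr1:153545807-153546056, minus strand: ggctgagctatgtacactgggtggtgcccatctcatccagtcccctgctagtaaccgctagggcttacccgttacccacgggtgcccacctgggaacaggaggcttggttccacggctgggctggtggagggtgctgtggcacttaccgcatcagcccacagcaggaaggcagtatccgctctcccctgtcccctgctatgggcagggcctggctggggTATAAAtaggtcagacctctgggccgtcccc
The capitals mark an AP-1 match starting at position -52 in S100A2, an AP-1 match at -225 and a STAT match at -100 in S100A3, and a TATA box at -31 in S100A4, counted from the first transcribed base.

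Of the 12 windows 6 held any of these motifs, and no motif was common to the members. The share of all windows that hold any of them is not given here, so this count has no background beside it. The AP-1 site was in the windows of S100A2 and S100A3 alone, and in 7.71% of all 35116 windows. The antioxidant core was in S100A13 and S100A16 (13.3% of all windows), the TATA box in S100A4 and S100A13 (11.5%) and the STAT element in S100A3 (7.66%). The NF-kappaB motif was in none of the 12 and in 11.3% of all windows. Such a match describes the letters of the window and is not evidence of binding.

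S100A10 and S100A11 are the members best known as annexin ligands. S100A10, also called p11, has lost calcium binding and stays in a permanently active form, joined to annexin A2 in a tetramer that brings plasminogen activation to the cell surface. Its log2 values were 7.93, 7.94, 7.48 and 7.97 in control libraries 1 to 4 and 6.78, 6.94, 6.99 and 7.25 in knockout libraries 1 to 4. Control library 3 was the lowest control and still lay above the highest knockout library. S100A10 fell by 0.84 log2 units (SE 0.14), from a control mean of 7.83 ± 0.23 to a knockout mean of 6.99 ± 0.20 (SD, n = 4; limma adjusted p = 0.00822), to 55.7% of the control level (95% confidence interval 44.8% to 69.2%).

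S100A11, or calgizzarin, binds annexin A1 in a calcium-dependent way and takes part in plasma membrane repair. It was 7.87, 7.85, 7.66 and 7.78 in control and 7.10, 7.18, 6.65 and 6.88 in knockout libraries, in replicate order. The lowest knockout values were those of libraries 3 and 4, the reverse of S100A10. Its fall was 0.84 as well (log2 difference -0.84, SE 0.12, limma adjusted p = 0.00534), to 56.0% of control (46.5% to 67.5%). The table lists 10 S100A11 pseudogenes, all blank.

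S100A4 and S100A6 lie 7.6 kb apart at the start of the second group. S100A4, or metastasin, binds the heavy chain of non-muscle myosin IIA and promotes disassembly of its filaments. The log2 value of S100A4 was 2.16, 2.12, 1.75 and 1.95 in control and 1.26, 1.52, 1.21 and 1.75 in knockout libraries. Knockout library 4 lay within 0.0011 of control library 3, while the other 3 knockout libraries lay further below. The log2 difference was -0.56 (SE 0.14, limma adjusted p = 0.0347), a level 67.7% of control with an interval of 54.3% to 84.5%. This was the least secure of the members: in fits that left out 1 library the call was lost in 6 of 8 (adjusted p up to 0.107), all but those without control library 3 and without knockout library 4, and it was lost in the fit to all 13943 genes with complete values (limma adjusted p = 0.0571).

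S100A6, or calcyclin, was first described as a gene induced when resting cells enter the cell cycle, and it binds annexin A11 and the ubiquitin ligase adaptor CACYBP. Its values were 11.24, 11.25, 11.41 and 11.32 in control and 10.83, 10.91, 10.82 and 10.79 in knockout libraries. The knockout libraries were close to each other (SD 0.05) and all below the controls. The log2 difference of -0.47 (SE 0.07, limma adjusted p = 0.00501) left 72.3% of the control level (65.3% to 80.2%), the smallest change of the 8 genes.

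S100A2 and S100A3 follow at higher coordinates on the chromosome. S100A2 is a largely nuclear protein that binds p53 and is often reduced in tumours, and S100A3 is a cysteine-rich, zinc-binding member abundant in the hair cuticle. S100A2 was 6.07, 6.16, 5.71 and 5.72 in control and 4.73, 4.94, 5.28 and 5.19 in knockout libraries. Libraries 1 and 2 were the highest among the controls and the lowest among the knockouts. The log2 difference was -0.88 (SE 0.15, limma adjusted p = 0.01003), to 54.3% of control (42.7% to 69.1%), and 0.721% of tested genes had a larger fall. S100A3 was 2.60, 2.77, 2.73 and 2.66 in control and 1.83, 1.92, 2.22 and 1.96 in knockout libraries. Its groups were 0.38 apart, and the log2 difference was -0.71 (SE 0.09, limma adjusted p = 0.00413), to 61.3% of control (53.0% to 70.9%).

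S100A13 and S100A16 end the series. S100A13 binds copper as well as calcium and helps release FGF1 and interleukin 1 alpha, which lack a signal peptide. It was 4.71, 4.68, 4.73 and 4.58 in control and 4.31, 4.19, 3.98 and 3.91 in knockout libraries. Knockout libraries 3 and 4 were lower than libraries 1 and 2, and all were below the controls. The log2 difference was -0.58 (SE 0.10, limma adjusted p = 0.00930), to 67.0% of control (57.4% to 78.1%). S100A16 is a broadly expressed member linked to adipocyte differentiation. It was 7.90, 7.90, 8.16 and 8.01 in control and 7.29, 7.27, 7.26 and 7.20 in knockout libraries, with the knockout values in a narrow band (SD 0.04) and 0.61 below the lowest control. The log2 difference of -0.74 (SE 0.08) had the lowest adjusted p of the members (limma adjusted p = 0.00143), and the level was 60.0% of control (53.2% to 67.5%).

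The members fell together between groups but did not all move together within them. Within replicates 1 and 2, S100A2, S100A10, S100A3 and S100A4 fell more (log2 differences -1.28, -1.08, -0.81 and -0.75) than within replicates 3 and 4 (-0.48, -0.61, -0.61 and -0.37). The other 4 genes went the other way: S100A11, S100A16, S100A13 and S100A6 changed by -0.72, -0.62, -0.44 and -0.38 within replicates 1 and 2 and by -0.95, -0.86, -0.71 and -0.56 within replicates 3 and 4. The difference between these sets was not tested. In replicates 1 and 2 alone all 8 were called lower, where 26.6% of tested genes were, and in replicates 3 and 4 alone 7 were (17.4% of tested genes), S100A4 having a limma adjusted p of 0.127. With each close knockout pair averaged to 1 library, S100A16, S100A3 and S100A11 stayed called (limma adjusted p = 0.0313, 0.0315 and 0.0376), 3 of 8 against 0.710% of tested genes, and limma adjusted p for the other 5 was 0.0625 to 0.0860. With the replicate number as a block all 8 were called lower (4.57% of tested genes).

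**Figure D2:**
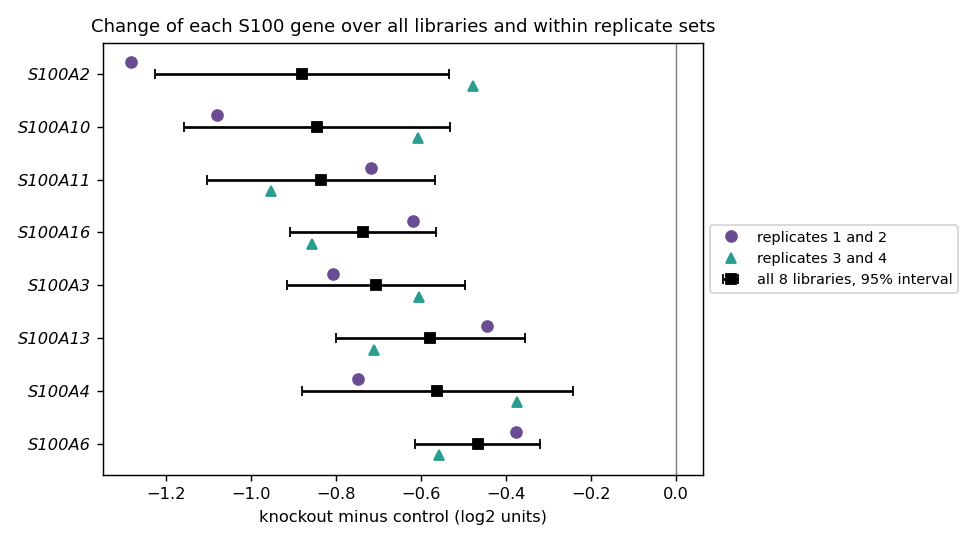
Knockout minus control in log2 units (horizontal axis) for each S100 gene, as the value over all 8 libraries with its 95% interval (squares), within replicates 1 and 2 (circles) and within replicates 3 and 4 (triangles). All values lie below 0, and circles lie left of triangles for S100A2, S100A10, S100A3 and S100A4 and right of them for the other 4 genes.

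Correlations between members over the 8 libraries are given as a description. They ranged from 0.68 (S100A4 with S100A13) to 0.99 (S100A6 with S100A16) over 28 pairs, with the group difference and the close library pairs shared by all points. After each group's mean was removed, 16 of 28 pairs were below 0. S100A6 and S100A16 still varied together (Pearson's r = 0.90), as did S100A4 and S100A10 (0.79), while S100A10 and S100A16 varied in opposite directions (-0.83).

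The rest of the S100 family was low or blank. Of 12 other family genes, 6 had a value in any library, and none reached the mean of 1 needed for testing. S100A8, S100A9, S100A12, S100B, S100G and S100A7A were blank in all libraries, S100A7 had a value in 1 control library, and S100A1 had values in 3 control libraries (-4.47 to -2.84) and 2 knockout libraries (-4.44 and -3.52). S100A5, which lies between S100A6 and S100A4, was -2.84 to -2.08 in control and -3.48 to -2.48 in knockout libraries, with overlapping groups. In the fit without the filter on low values its log2 difference was -0.67 (SE 0.26, limma adjusted p = 0.148). In the same fit S100A14, S100P and S100Z had differences of -0.74, -0.15 and 0.84 (limma adjusted p = 0.290, 0.898 and 0.335).

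The annexins, the calcium-dependent membrane-binding proteins that many S100 dimers grip, were tested for comparison. Of 13 annexin genes 6 were tested, and their median log2 difference was 0.08, with a range of -0.27 to 0.28. By limma 2 of the 6 had an unadjusted p under 0.05, as did 2675 of the 9016 tested genes, and 0 of 6 passed the threshold. With 13.1% of all tested genes called, so short a list cannot be told from the background by this count. Within replicates 1 and 2 alone 1 was called, where 5380 of the 9016 tested genes were. Within replicates 3 and 4 alone 3 were called, where 2987 of the tested genes were. ANXA2, the partner of S100A10, had a control mean of 8.43 ± 0.05 and a knockout mean of 8.56 ± 0.27 (SD over 4 libraries each), with a limma adjusted p of 0.535. ANXA1, the partner of S100A11, had means of 7.55 ± 0.06 and 7.83 ± 0.19 (limma adjusted p = 0.0991). ANXA11 had means of 3.48 ± 0.06 and 3.69 ± 0.22 (limma adjusted p = 0.235).

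Of 30 listed genes for other known S100 partners and receptors 24 were tested, with a median difference of 0.03. The 2 called, both lower, are 8.33% of them, near the 13.1% of all tested genes. CTSB, the protease cathepsin B, fell by 0.52 log2 units (SE 0.09, limma adjusted p = 0.00969). CAPZA1, an actin-capping subunit, fell by 0.28 (SE 0.07, limma adjusted p = 0.0354), and with the replicate block its adjusted p was 0.0888. Leaving out 1 library, the call on CAPZA1 held only without control library 3 or knockout library 3 (limma adjusted p = 0.0279 to 0.111 over the 8 fits). MYH9, the myosin heavy chain bound by S100A4, changed by -0.05, CACYBP by 0.15 and AHNAK, the large scaffold bound by S100A10 with annexin A2, by -0.35, with limma adjusted p-values of 0.844, 0.374 and 0.127. Cargo of S100A13 was singled out after its values were seen. FGF1 was below the level for testing. It was -1.56, -1.43, -0.79 and -0.82 in control and 1.68, 1.62, 0.14 and 0.23 in knockout libraries, in replicate order, a larger rise in replicates 1 and 2. In the fit without that filter its log2 difference was 2.07 (SE 0.41, limma adjusted p = 0.0264). IL1A was 5.20 to 5.27 in the controls, 5.03 and 5.15 in knockout libraries 1 and 2 and 3.81 and 3.82 in knockout libraries 3 and 4 (limma adjusted p = 0.132).

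**Figure D3:**
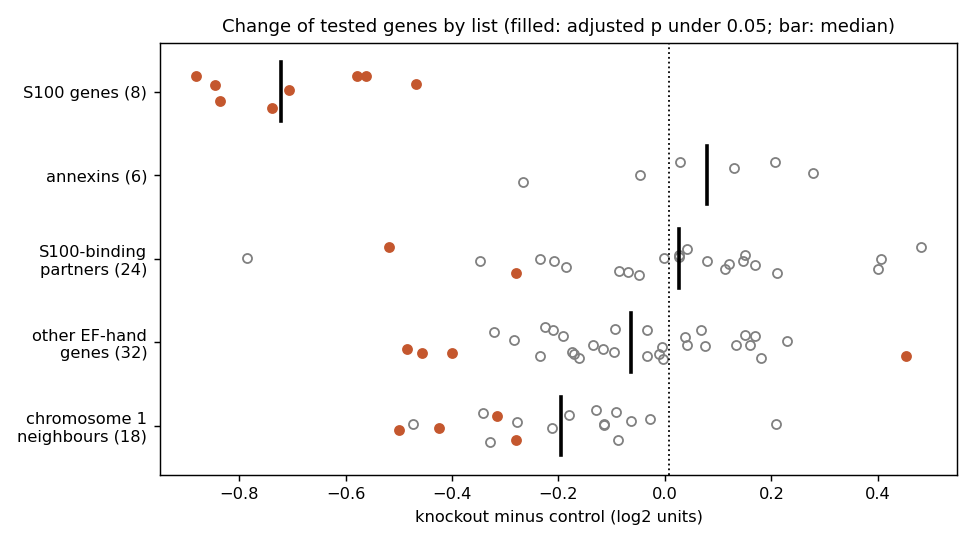
Knockout minus control in log2 units (horizontal axis) for every tested gene of 5 lists, with called genes filled, the others open, a bar at each list's median and a dotted line at the median of all tested genes (0.01). The S100 genes are all filled and centre on -0.72. No annexin is filled (6 tested, median 0.08), where 13.1% of all tested genes were called, so this count cannot be told from the background.

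The level of an S100 gene was then set against that of its partner within each library, for 6 pairs chosen with their values known. This difference of log2 values is free of any shift that both genes share in a library, and its size in one group reflects gene-specific scale, so only its change is read. S100A10 minus ANXA2 was -0.44, -0.49, -0.96 and -0.51 in control and -1.52, -1.42, -1.82 and -1.54 in knockout libraries. The groups did not overlap, and the change was -0.97. S100A11 minus ANXA1 was 0.39, 0.31, 0.04 and 0.21 in control and -0.91, -0.81, -1.03 and -0.77 in knockout libraries, a change of -1.11 and the largest of the 6. S100A6 changed by -0.67 relative to ANXA11 and by -0.61 relative to CACYBP, and S100A10 by -0.50 relative to AHNAK. In these 5 pairs every knockout value lay below every control value. S100A4 minus MYH9 changed by -0.51 with overlapping groups. Because the pairs were chosen with both genes' values known, these changes are a description, with no test.

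**Figure D4:**
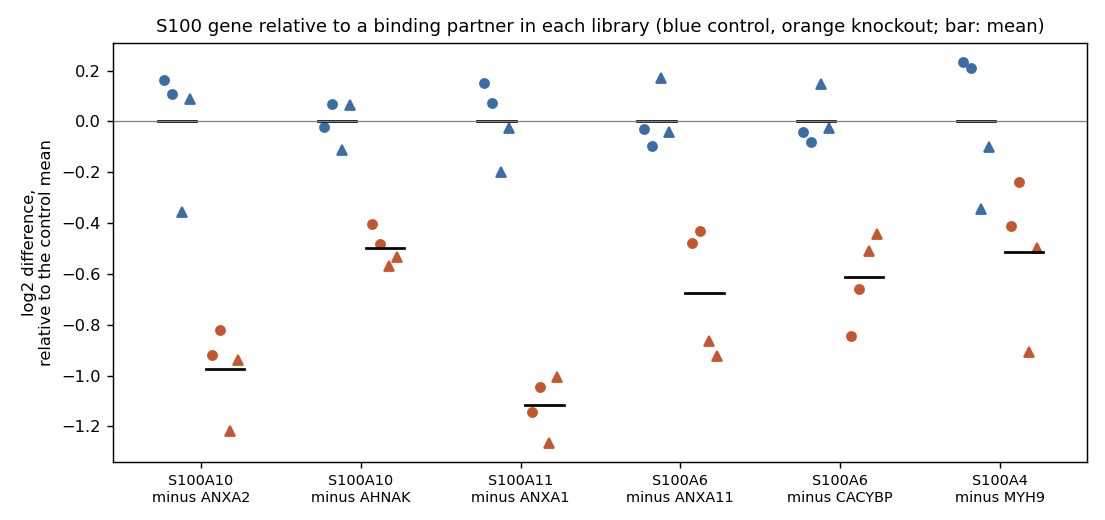
Log2 value of an S100 gene minus that of a binding partner in each library, set relative to the control mean of the pair (vertical axis, log2 units), with control libraries in blue, knockout libraries in orange, circles for replicates 1 and 2, triangles for replicates 3 and 4 and bars for means. Knockout points lie below all control points in 5 pairs, with mean changes from -1.11 to -0.50, and overlap them for S100A4 minus MYH9.

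Other EF-hand genes, which share the calcium-binding fold, moved in both directions. Of 36 listed genes 32 were tested, with a median log2 difference of -0.06, and 4 were called, 12.5% against 13.1% of all tested genes. RCN2, a reticulocalbin of the endoplasmic reticulum, rose by 0.45 (SE 0.06, limma adjusted p = 0.00509). HPCAL1, a neuronal calcium sensor relative, fell by 0.49 (SE 0.10, limma adjusted p = 0.0162), SLC25A24, a mitochondrial carrier regulated by calcium, fell by 0.40 (SE 0.09, limma adjusted p = 0.0291), and RCN3 fell by 0.46 (SE 0.12, limma adjusted p = 0.0364, 0.0553 with the replicate block). In fits without control library 1, 2 or 4, HPCAL1, SLC25A24 and RCN3 lost their calls, the last 2 also without knockout library 3 or 4, with limma adjusted p-values of up to 0.0617, 0.0941 and 0.113.

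The genes around the members on chromosome 1 were also mostly below 0 over all libraries, by less, but not within replicates 1 and 2. Within 500 kb of the outermost members, 131 RefSeq genes other than S100 genes were annotated, 115 of them were in the table and 18 were tested. The 18 had a median log2 difference of -0.20, and 17 were below 0 (48.7% of all tested genes were). Of the 18, 4 (22.2%) were called, all lower, against 6.10% of all tested genes called lower and 13.1% called in either direction. No tested gene had its midpoint between S100A10 and S100A13. Beyond S100A13 all 12 tested genes were below 0 (median -0.30), and ahead of S100A10 5 of 6 were (median -0.09). The sets of replicates differed in this. Within replicates 1 and 2, 10 of the 18 were below 0 (8 of 12 and 2 of 6 on these sides), with 6 called higher and 6 lower. Of all 9016 tested genes 46.0% were below 0 in that set, with 2978 called higher and 2402 lower (26.6%). Within replicates 3 and 4, 17 of the 18 were below 0, with 1 called higher and 14 lower. Of all tested genes 50.3% were below 0 there, with 1417 called higher and 1570 lower (17.4%). The difference between the sets was not tested. The called genes were INTS3, a subunit of the Integrator complex (-0.50, SE 0.08, limma adjusted p = 0.00902), CHTOP, a chromatin and RNA export factor (-0.42, SE 0.11, limma adjusted p = 0.0365), GATAD2B, a subunit of the NuRD complex (-0.32, SE 0.09, limma adjusted p = 0.0492), and CREB3L4, a membrane-bound transcription factor (-0.28, SE 0.07, limma adjusted p = 0.0307). With the replicate block 2 genes of the window were called, both lower, where 4.57% of all tested genes were called lower. They were INTS3 and, named after its values were seen, CRTC2 (-0.47, limma adjusted p = 0.0589 without the block and 0.0229 with it). With the block CHTOP, GATAD2B and CREB3L4 had limma adjusted p-values of 0.0814, 0.0630 and 0.0545. Each of these 3 calls was also lost in 6 of 8 fits leaving out 1 library, always without control library 1, 2 or 4 and also without knockout library 3 (limma adjusted p up to 0.144). Among the members, 7 of 8 had a larger fall than any of the 18 neighbours, the exception being S100A6. Whether the neighbourhood has a part in the members' fall was not tested.

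**Figure D5:**
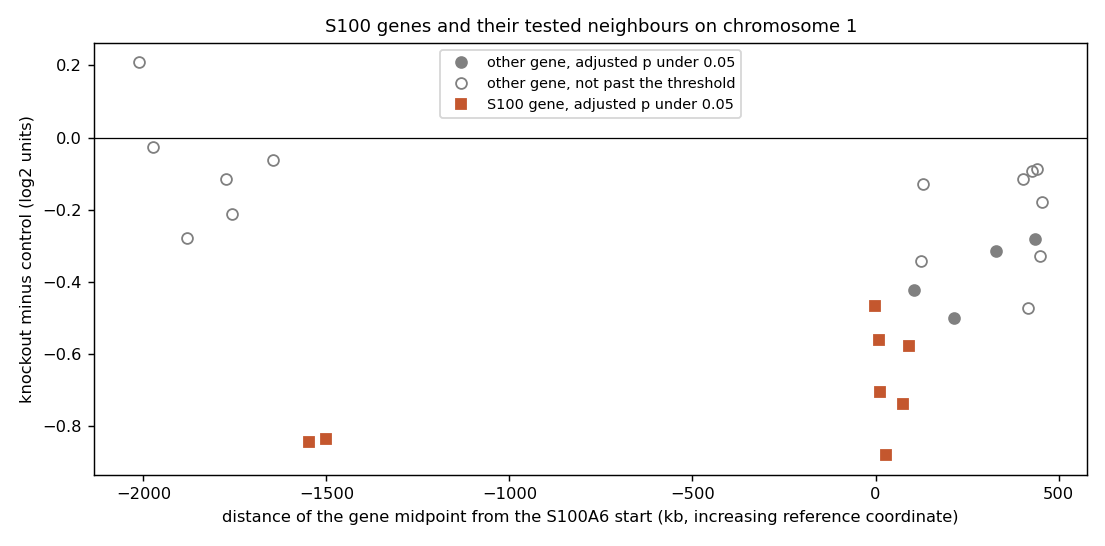
Knockout minus control in log2 units (vertical axis) against the distance of each gene's midpoint from the S100A6 start in kb (horizontal axis), for the 8 S100 genes (squares) and 18 tested neighbours (circles, filled where called). The squares lie between -0.88 and -0.47 and the neighbours between -0.50 and 0.21.

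S100 messages are short, and transcript length was therefore set beside the result. Median transcript lengths in GENCODE 29 were 521 to 956 bases for the members. Each is a median over all annotated transcripts of a gene. The range therefore also holds genes such as AHNAK (642.5) and MYH9 (572), and it is not a class of short messages. The 4242 tested genes in that range had a median log2 difference of 0.01, and 5.66% of them were called lower. With GC content and length regressed out of each library, all 8 members were called lower with log2 differences of -0.87 to -0.45. In that fit 585 of 8803 genes were called lower. Both comparisons used these medians, so whether message length has a part in the members' fall was not tested.

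The tested genes with the most similar profile to each member were sought by Pearson's correlation of log2 values over the 8 libraries. These are descriptions, since every gene with a clear group difference scores high. S100A6 was closest to NFKBIA, which encodes the NF-kappaB inhibitor alpha (0.998), and to the death receptor gene TNFRSF10B (0.996). S100A16 was closest to PPP1R18 and SBNO2 (0.997 each), S100A11 to ZNF496 (0.996) and the metalloprotease gene ADAM8 (0.992), and S100A13 to CALHM2 (0.987) and the NF-kappaB subunit gene RELB (0.986). S100A10 was closest to SH3KBP1 (0.993) and HNRNPK (0.987), S100A3 to EXD2 (0.992) and IVNS1ABP (0.989), S100A2 to SND1 (0.986) and the laminin gene LAMB2 (0.984), and S100A4 to CSGALNACT2 (0.976) and ROCK1 (0.968). All 16 of these genes had a negative log2 difference, from -1.65 for RELB to -0.21 for ROCK1.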

How the data were processed

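Total RNA of 8 libraries was measured by stranded RNA sequencing, per the labels' protocols (a stranded kit). Per the submitters' processing notes, bcl2fastq, Partek 7.0 and the build GRCh38 were used. The aligner, the counting program and the unit before the logarithm are not given in the sources used here. The authors deposited 1 log2 value per gene symbol and library; base 2 is inferred. Every library had a mean of 1.07 and a median of 1.77, as after quantile normalization of the deposited log2 values, and a global shift cannot be seen. Blank cells were treated as missing.

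The 9016 genes with no blank and an average of 1 or more were fitted with limma 3.58.1 in R 4.3.3 without covariates, with Benjamini-Hochberg adjustment over all of them and a threshold of 0.05. The exact permutation test of NELL1 used scipy 1.17.1. The limma fit was tested on simulated data. Alternatives were other filters, scalings and thresholds, a replicate block, averaged knockout pairs, each set of replicates alone and leaving out each library. The GC and length corrections and the member minus partner values were added after seeing the data.

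The members and lists were chosen with earlier results of these data known. Named genes are the 8 members, NELL1, other S100 genes with a value, up to 4 called genes in each direction per list, 6 binding partners and the 2 most similar genes per member; exceptions are stated. Titles give both groups replicate numbers 1 to 4. The numbers were treated as a pairing in the alternative fits with a replicate block. Deviations from group means correlated at 0.20 to 0.29 in the 4 same-numbered pairs. Pairs of different number within replicates 1-2 or 3-4 correlated at 0.11 to 0.31, so these correlations do not single out a pairing by number.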

Additional observations from a re-analysis of the deposited data

Results flagged for a closer look

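S100A10 in control library 3 had a log2 value of 7.48, apart from the other 3 controls at 7.93 to 7.97. The gap took up 0.925 of the range of the control group, above Dixon's 95% critical value for 4 samples. It was the only such value in 63 groups checked, and chance gives about 1 in 20. Without control library 3 the S100A10 difference was -0.96 (limma adjusted p = 0.00363).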

How the results depend on the processing

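Every alternative kept all 8 S100 differences negative, and S100A3, S100A11 and S100A16 passed the threshold in each fit that held them. S100A3 and S100A4 were too low for the fit to genes with a mean of at least 3. S100A4 was not called without the filter on low values (-0.56, limma adjusted p = 0.0571), within replicates 3 and 4 (-0.37, 0.127) and in 6 of 8 fits leaving out 1 library (-0.59 to -0.49; the 8 fits ran from -0.67 to -0.49). With averaged knockout pairs 3 members were called, and S100A2 (-0.88), S100A4 (-0.56), S100A6 (-0.47), S100A10 (-0.84) and S100A13 (-0.58) were not. In the main fit S100A2 and S100A4 missed the stricter threshold of 0.01 (limma adjusted p = 0.01003 and 0.0347), and the other members passed it. The replicate block kept 8 members called and, beside the changes given with the results, changed no other call on a listed gene named. With the block, alone or with GC and length correction, 1 partner and 2 neighbours were called. All tested genes called numbered 1183, and 729 with a mean of at least 3, 2274 with a term for replicates 1-2 against 3-4, 108 with averaged pairs, 5380 within replicates 1-2, 2987 within replicates 3-4, 272 at an adjusted p under 0.01 and 391 to 1353 leaving out 1 library (444, 431 and 391 without control library 1, 2 or 4, 716 without knockout library 3). Partners called numbered 7 with the set term, 0 with averaged pairs, 18 and 5 within the sets, 1 under 0.01 and 1 to 4 leaving out 1 library. EF-hand genes numbered 7, 0, 20 and 8, 1, and 1 to 4 in the same order. Annexins numbered 1 and 3 within the sets. Neighbours numbered 2 without the filter, 0 with averaged pairs, 12 and 15 within the sets, 1 under 0.01 and 1 to 4 leaving out 1 library. Without control library 1, 2 or 4, 1 gene was called in each of the partner, EF-hand and neighbour lists, and 0 annexins. The causes were not tested. Fits within a set hold 4 libraries, 2 of them a close knockout pair, and in replicates 1 and 2 the controls are a close pair as well. Depth is unknown, so no limit of detection can be given.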
